A study of Rattus norvegicus with 8 samples.

Results

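Genes of centrosomal proteins and of proteins named for a coiled coil were examined in rat H9C2 cardiomyoblasts, a line derived from embryonic heart. The set was taken by name from the deposited count table: every gene whose name is Cep or Ccdc followed by a digit, together with Cntln, Pcm1, Pcnt and Ninl, with at least 10 exon reads in 2 libraries. The names gave 180 of the 32258 features of the table, and 120 of these reached the read minimum, of 12642 features that did. They were 31 of 32 Cep genes, 85 of 144 Ccdc genes and the 4 added genes. The 60 genes below the minimum had a median of 4.5 exon reads over all libraries, and 11 of them had 0. Just inside the minimum were Ccdc155 and Ccdc147, with 11 and 13 reads in the second-highest library, and just outside were Ccdc151 and Ccdc158, with 9 reads each.

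The cells had received a pDC316 vector for 2 days, in 4 groups of 2 libraries. The vector carried YFP alone (YFP), or YFP joined to the nuclear receptor PPARα as wild type (WT), as the phospho-resistant mutant S280A, in which serine 280 is alanine, or as the phospho-mimicking mutant S280D, in which it is aspartate. All groups shared the cell line, the vector and YFP, and all kept their own Ppara gene, which stood at 59.5 to 74.4 read counts scaled to a common library size (CPM) in the YFP libraries and, with the delivered copy, at 12380 to 24130 CPM in the others. No source used here gives the promoter that drives the constructs. Exon reads totalled 14018785 to 39526013 per library. Separate cultures are not stated for the libraries of a group, so a p-value reflects only how far these samples scatter, which may be technical.

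The centrosome is a pair of centrioles in a protein matrix that nucleates microtubules, and it builds the mitotic spindle poles and, in resting cells, the base of the primary cilium. Many of its components are long coiled-coil proteins, and those named Cep were found mostly as parts of the centrosome. The name Ccdc records only a predicted coiled coil, so the Ccdc genes encode proteins of cilia, endosomes, mitochondria, the nucleus, the endoplasmic reticulum and the cell surface. In muscle the centrosome gives up part of its matrix to the nuclear envelope as myoblasts differentiate.

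Promoter sequences show how unlike the members are at their starts. A few are printed because their genes carry the results: Cep55, Cep83 and Ccdc88a, which were higher with WT and S280D, Cep57, which was higher in S280D than in S280A, and Cep164, which was lower in S280D. They are the 250 bases before the start of each gene in RefSeq, build GRCr8, written 5′ to 3′ on the gene's strand. Their positions are chr1:245245113-245245362 (plus strand) for Cep55, chr8:18970845-18971094 (minus) for Cep57, chr7:31167117-31167366 (plus) for Cep83, chr14:107305148-107305397 (plus) for Ccdc88a and chr8:55031207-55031456 (minus) for Cep164. Capitals mark CCAAT, the site of NF-Y, and TTTGAA, the cell cycle homology region found in many genes of mitosis, on either strand (ATTGG and TTCAAA are the reverse strand).
Cep55: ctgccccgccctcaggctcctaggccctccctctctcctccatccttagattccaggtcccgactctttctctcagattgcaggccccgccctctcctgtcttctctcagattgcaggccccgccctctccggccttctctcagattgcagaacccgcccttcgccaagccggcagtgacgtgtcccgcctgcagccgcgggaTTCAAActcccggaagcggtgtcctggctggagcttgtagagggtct
Cep57: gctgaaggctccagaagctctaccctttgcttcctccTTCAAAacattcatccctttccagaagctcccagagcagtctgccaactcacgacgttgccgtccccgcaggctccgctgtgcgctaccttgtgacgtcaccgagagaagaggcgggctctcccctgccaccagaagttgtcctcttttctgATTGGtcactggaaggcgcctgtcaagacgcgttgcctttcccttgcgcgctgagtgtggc
Cep83: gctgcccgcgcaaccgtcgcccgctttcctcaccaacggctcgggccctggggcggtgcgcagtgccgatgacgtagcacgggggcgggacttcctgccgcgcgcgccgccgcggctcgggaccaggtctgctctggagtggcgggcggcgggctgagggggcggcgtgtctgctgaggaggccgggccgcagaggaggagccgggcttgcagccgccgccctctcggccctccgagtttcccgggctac
Ccdc88a: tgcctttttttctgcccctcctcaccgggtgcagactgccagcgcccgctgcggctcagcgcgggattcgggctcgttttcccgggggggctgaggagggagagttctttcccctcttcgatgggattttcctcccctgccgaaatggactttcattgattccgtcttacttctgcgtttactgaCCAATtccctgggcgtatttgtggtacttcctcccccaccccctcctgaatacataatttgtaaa
Cep164: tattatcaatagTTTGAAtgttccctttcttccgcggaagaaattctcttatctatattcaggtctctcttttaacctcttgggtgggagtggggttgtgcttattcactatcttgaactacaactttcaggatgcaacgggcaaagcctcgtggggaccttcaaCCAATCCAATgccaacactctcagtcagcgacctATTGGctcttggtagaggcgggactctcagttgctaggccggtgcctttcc
The Cep55 promoter holds TTTGAA 41 bases before the start and no CCAAT. In Cep83 neither was found, and 76.4% of the bases are G or C against 47.2% in Cep164.

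Of the 120 genes, 116 matched a RefSeq symbol or synonym and 104 a promoter of 300 bases, from 250 before to 50 after the start. TTTGAA on either strand was in 10 of 28 Cep promoters (35.7%), 11 of 73 Ccdc promoters (15.1%) and 18.4% of all 33469 promoters. CCAAT was in 42.9% of Cep, 42.5% of Ccdc and 37.5% of all promoters. The E2F motif, searched as TTTGGCGC or TTTCGCGC, was in 1 Cep and 2 Ccdc promoters, and in 0.792% of all. The PPAR element, searched as 2 copies of AGGTCA in the same direction with 1 base between, was in no member promoter and in 0.0538% of all. The single copy AGGTCA, which overlaps that element, was in 2 Cep and 7 Ccdc promoters and in 16.2% of all. These are matches of letters in 1 window per gene, and G and C made up a median of 63.7% of Cep, 58.3% of Ccdc and 51.7% of all promoters.

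Levels were compared between genes as CPM per kilobase of exon. The median was 3.62 for Cep genes, 4.85 for Ccdc genes and 7.74 for the 12407 genes tested. Ccdc80, a secreted protein of the extracellular matrix, stood far above the rest at 1126 CPM per kb and supplied 62.5% to 72.6% of all reads of the 120 genes in each library. Next among the Ccdc genes were Ccdc86, a nucleolar protein, at 71.5 and Ccdc102a at 67.7 CPM per kb. The highest Cep genes were Cep170b at 27.8, Cep19 at 12.7 and Cep164 at 10.7 CPM per kb. The lowest were Cep290 (0.487), Cep70 (0.58) and Cep162 (0.633) among Cep genes, and Ccdc147 (0.129), Ccdc30 (0.172) and Ccdc39 (0.179) among Ccdc genes. These are bulk samples, in which fewer cells with a transcript and less transcript per cell cannot be told apart.

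Cep genes were higher as a group in the WT and S280D libraries than in the YFP and S280A libraries, and Ccdc genes followed the same order with smaller differences. The level of each gene was taken relative to its mean over the 8 libraries, as log2 CPM with 0.5 added. The Cep median was -0.30 and -0.13 with YFP, -0.23 and -0.36 with S280A, 0.23 and 0.17 with WT, and 0.35 and 0.17 with S280D. The Ccdc median was -0.09 and -0.08 with YFP, -0.07 and -0.10 with S280A, 0.08 and 0.12 with WT, and 0.14 and 0.10 with S280D. For both families no YFP or S280A library reached the level of a WT or S280D library. Over all genes tested the median lay between -0.01 and 0.02 in every library.

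**Figure D1:**
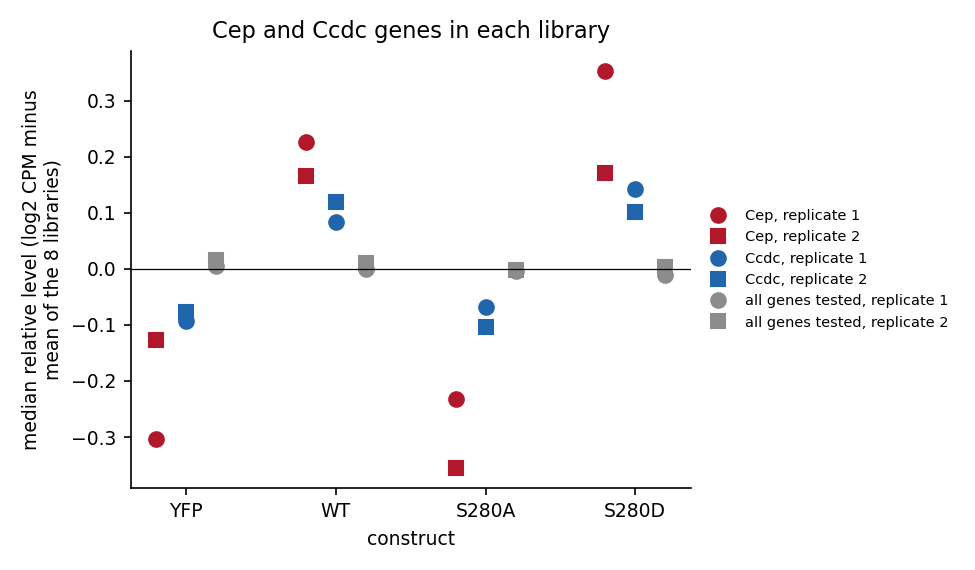
Median relative level of the 31 Cep genes (red), the 85 Ccdc genes (blue) and all genes tested (grey) in each library, in log2 CPM minus the mean of the 8 libraries (vertical axis), by construct (horizontal axis). Circles are replicate 1 and squares replicate 2; the Cep medians run from -0.36 in an S280A library to 0.35 in an S280D library, and the grey points stay near 0.

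Properties of the libraries moved with these medians. Spearman's rho across all genes between exon length and relative level was -0.25 and -0.06 in YFP and -0.14 and -0.24 in S280A, and 0.14 and 0.17 in WT and 0.25 and 0.23 in S280D. The 5 fibroblast markers, led by the collagen gene Col1a1, summed to 51870 to 58980 CPM in YFP and 49870 to 59220 in S280A, and to 34740 to 40230 in WT and 38990 to 42290 in S280D. Nearly all of this sum was Col1a1 and Col1a2. Thy1 overlapped between YFP (150 and 117 CPM) and WT (137 and 154), unlike the collagens. In S280A, at 188 and 214 CPM, Thy1 was above WT and S280D (124 and 158), as the collagens were. Dcn did not follow the collagens, at 21.3 and 25.9 CPM in YFP, 22.3 and 19.3 in S280A, and 29.5 and 28.4 in S280D. The 11 muscle lineage markers summed to 987 to 1359 CPM over all libraries, mostly Tpm1. Tnnt2 ran from 129 to 265 CPM, Acta1 from 69.5 to 165, Mef2d from 22.8 to 34.0 and Gata4 from 6.01 to 10.7. Mef2c ran from 19.7 CPM in an S280A library to 68.7 in an S280D library. The others were low: Des stayed at or below 0.894 CPM, Myog 0.82, Myod1 0.536, Actc1 1.33 and Myh7 0.817. Markers of endothelium, macrophages and multiciliated cells summed to at most 1.35, 1.31 and 1.33 CPM in any library, and Ptprc had 0 reads. Per the file headers lane 1 held both YFP libraries, lane 2 both WT libraries, and each lane 1 library of S280A and of S280D. The part of the fibroblast markers in the results was not tested.

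The comparison of WT with YFP asks what the receptor with serine 280 intact changed. A gene counts as called where edgeR's quasi-likelihood test gave an adjusted p below 0.05 over all genes. Of all genes tested 12.2% were called higher in WT and 7.45% lower. Of 31 Cep genes 8 rose and 0 fell, and of 85 Ccdc genes 14 rose and 4 fell. At an unadjusted p under 0.05 in either direction stood 19 of 31 Cep genes and 4433 of the 12407 genes tested. DESeq2 called 9 Cep genes higher and 0 lower, beside 13.8% and 8.07% of all genes. With an offset for exon length 7 Cep genes were higher and 3 lower, beside 12.15% and 9.76% of all genes. The median log2 fold change was 0.38 for Cep, 0.26 for Ccdc and -0.01 for all genes tested. With lane as a covariate 0 of the 120 genes were called, where 0.0645% and 0.00806% of all genes were called higher and lower, and between these groups lane and construct cannot be told apart. Without WT replicate 1 the calls fell from 28 to 2, without YFP replicate 1 to 6 and without WT replicate 2 to 12. The share of all genes called fell too, from 19.6% to 1.28%, 5.98% and 7.42%.

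S280D against YFP gave more calls. Of all genes tested 17.1% were higher in S280D and 13.7% lower. Of the Cep genes 16 rose and 1 fell, and of the Ccdc genes 20 rose and 9 fell, with medians of 0.56 and 0.23 against -0.02 for all genes. With the exon length offset 15 Cep genes were higher and 5 lower, beside 15.9% and 15.96% of all genes. The 48 calls over all members became 25 with the lane covariate, 21 without YFP replicate 1 and 11 without S280D replicate 1, the library with the most reads. Of all genes 30.75% were called at first and 13.3%, 12.2% and 7.24% in these fits. This comparison and the previous share the YFP libraries.

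S280A against YFP gave almost no member calls. By edgeR 0 of the 120 genes were called, and the medians were -0.08 for Cep and -0.04 for Ccdc genes. An unadjusted p under 0.05 was found for 13 of the 120 and for 1439 of the 12407 genes tested. Of all genes 0.0403% were called higher and 0.0% lower. DESeq2 called 1 member, Ccdc130, with a difference of 0.78 ± 0.20 (adjusted p = 0.0158), which edgeR placed at an adjusted p of 0.267 and, without the filter on low counts, of 3.91e-04. Of all genes DESeq2 called 0.806% in this comparison, and edgeR without the filter 1.37%. Without YFP replicate 1 edgeR also called Ccdc130, at 1.13 ± 0.16 (adjusted p = 0.0156). In the YFP libraries Ccdc130 stood at 58.2 and 36.7 CPM and in S280A at 77.5 and 83.7 CPM.

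Between constructs S280A lay below WT and S280D. In S280A against WT 11 Cep genes fell and 2 rose, and 20 Ccdc genes fell and 1 rose, where 15.9% of all genes were called lower and 10.1% higher. The medians were -0.52 for Cep, -0.21 for Ccdc and 0.01 for all genes. With the exon length offset 8 Cep genes were lower and 5 higher, beside 14.2% and 13.8% of all genes. All 36 member calls were lost without WT replicate 1 and without S280A replicate 2, 17 members were called without WT replicate 2, and the lane covariate left 14. The calls over all genes went the same way, from 26.0% to 0.0552%, 0.0468%, 10.2% and 8.0%. S280D against WT gave 0 member calls in edgeR, beside 0.0% of all genes higher and 0.0403% lower. DESeq2 also called 0 members, beside 0.322% of all genes. At an unadjusted p under 0.05 edgeR placed 5 of the 120 members and 606 of the 12407 genes tested.

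S280D against S280A, which sets the mimic of phosphorylation against the form that cannot be phosphorylated, held the most calls. Of 31 Cep genes 15 rose and 2 fell, and of 85 Ccdc genes 26 rose and 10 fell, beside 21.3% of all genes higher and 18.0% lower. The median was 0.62 for Cep, 0.29 for Ccdc and -0.01 for all genes tested. Cntln and Pcm1 rose, and Pcnt and Ninl were not called. With lane as a covariate 49 of the members were called in place of 55, without S280A replicate 2 it was 17 and without S280D replicate 1 it was 18. Of all genes 39.3% were called at first, and 32.3%, 9.78% and 10.5% in these fits. The calls of 15 members, 4 Cep, 9 Ccdc, Cntln and Pcm1, held under all 17 alternatives: Cep83, Cep135, Cep162, Cep350, Ccdc25, Ccdc50, Ccdc59, Ccdc82, Ccdc88a, Ccdc97, Ccdc112, Ccdc132 and Ccdc186 were the others. That number was 11 in S280D against YFP, and 0 in WT against YFP and in S280A against WT. How many of all genes held in this way was not counted, so the 15 have no background beside them.

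**Figure D2:**
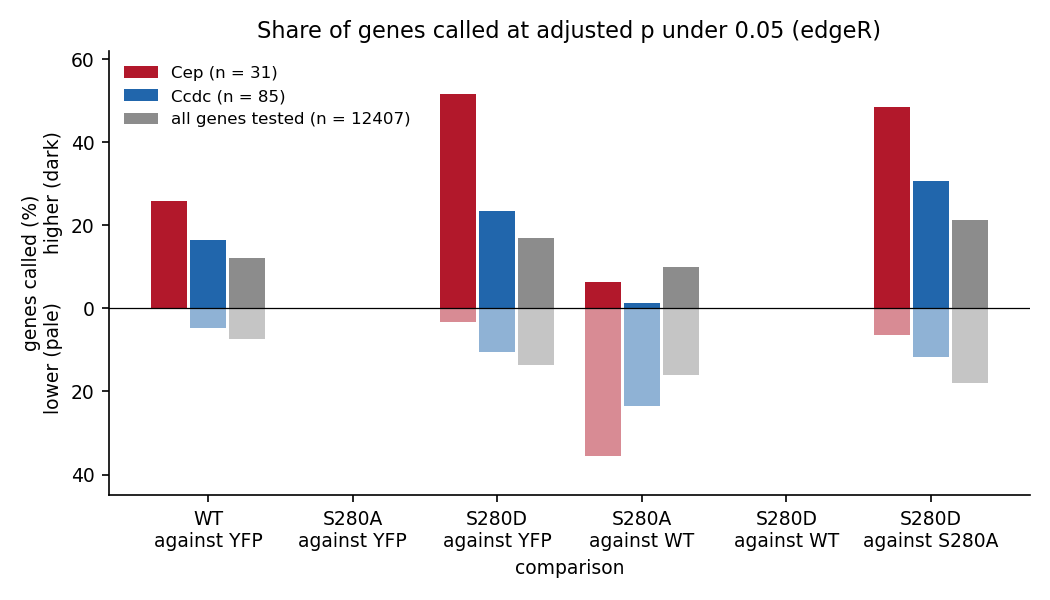
Percent of Cep genes (red, n = 31), Ccdc genes (blue, n = 85) and all genes tested (grey, n = 12407) called at an adjusted p under 0.05 (vertical axis) in each comparison (horizontal axis). Dark bars above 0 count genes called higher in the group named first, pale bars below 0 those called lower; in S280D against S280A 48.4% of Cep, 30.6% of Ccdc and 21.3% of all genes were higher, and S280A against YFP and S280D against WT have no visible bars.

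Cep and Ccdc genes differ in length, so the comparison of the families was repeated with exon length weighed. The median exon length was 3363 bases for Cep, 2046 for Ccdc and 2314 for all genes tested. Exons of over 4 kb were found in 12 of 31 Cep genes (38.7%), 6 of 85 Ccdc genes (7.06%) and 20.04% of all genes. In S280D against S280A the median of all genes tested went from -0.17 under 2 kb through 0.02 at 2 to 4 kb and 0.21 at 4 to 6 kb to 0.38 over 6 kb. The median of all genes thus rose with exon length.

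Cep genes exceeded Ccdc genes by 0.34 (log2) in the S280D against S280A medians. After subtraction of a smooth curve of fold change on exon length over all genes, the excess was 0.25, and the medians above the curve were 0.55 for Cep and 0.30 for Ccdc. Among genes of 2 to 4 kb, which hold 17 Cep and 38 Ccdc genes, the sign turned: the median was 0.50 for Cep and 0.58 for Ccdc. Of these, 7 of 17 Cep (41.2%) and 13 of 38 Ccdc genes (34.2%) were called higher, beside 22.7% of all genes of that length. Under 2 kb there were only 2 Cep genes against 41 Ccdc genes, and over 6 kb 5 Cep genes and no Ccdc gene. At 4 to 6 kb the medians were 0.80 for 7 Cep and 1.64 for 6 Ccdc genes.

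The other comparisons gave differences of either sign. For S280D against YFP Cep exceeded Ccdc by 0.33, by 0.30 after the length curve and by 0.14 at 2 to 4 kb. For WT against YFP the values were 0.12, 0.14 and 0.25. In S280A against WT Cep lay further down by -0.31, by -0.17 after the curve and by -0.20 at 2 to 4 kb. For S280D against WT they were 0.15, 0.13 and 0.11, and for S280A against YFP -0.04, -0.02 and 0.03. At 4 to 6 kb, with 7 Cep and 6 Ccdc genes, the family order turned in all these comparisons but S280D against WT. The medians were 0.56 for Cep and 0.88 for Ccdc in S280D against YFP, and 0.32 and 0.83 in WT against YFP. They were -0.55 and -1.28 in S280A against WT, and -0.09 and -0.60 in S280A against YFP. In S280D against WT, where the order held, they were 0.11 and 0.05. The Cep minus Ccdc difference had an SD of 0.0883 between libraries of a group. These are descriptions of the named sets and carry no test.

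**Figure D3:**
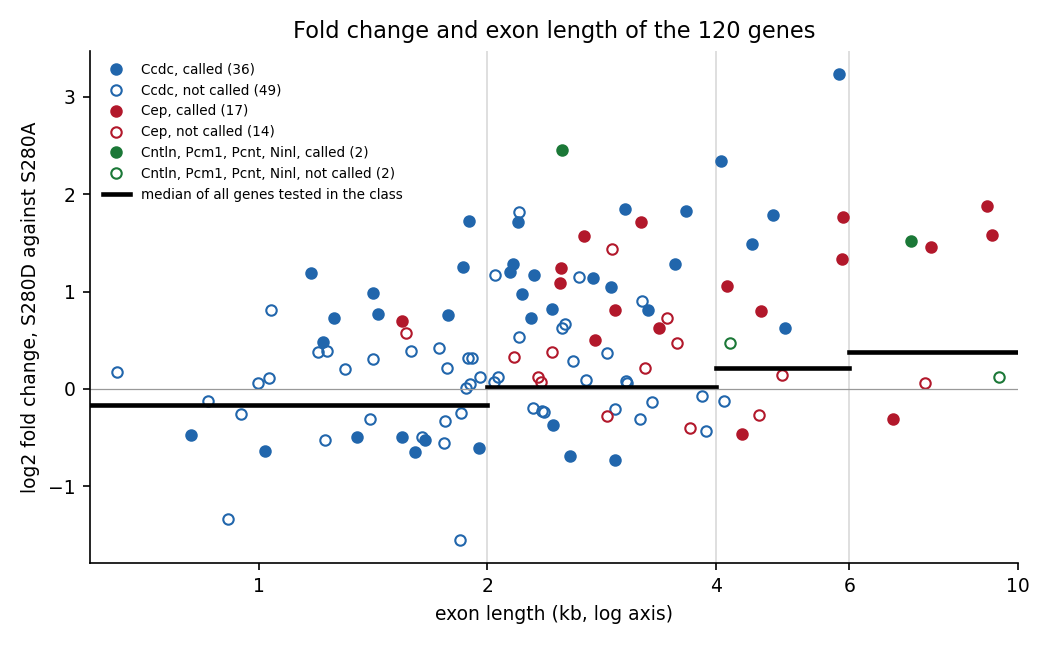
Log2 fold change of S280D against S280A (vertical axis) against exon length in kb on a log axis (horizontal axis) for the 120 genes. Red points are Cep, blue Ccdc and green Cntln, Pcm1, Pcnt and Ninl, filled where called; black bars are medians of all genes tested in each length class, which rise from -0.17 to 0.38, and most members above 2 kb lie above them.

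Among proteins of the pericentriolar material, the satellites and the linker between centrioles, 7 of 15 members rose and 1 fell in S280D against S280A, with a median of 0.47. This and the counts of the other role lists stand beside 21.3% of all genes higher and 18.0% lower. Cntln encodes centlein, a linker protein, on chromosome 5 from 103251985 to 103366264 of build Rnor_6.0. Its level stood at 0.937 and 1.02 CPM with YFP, 0.772 and 0.644 with S280A, 3.95 and 3.87 with WT, and 3.63 and 4.23 with S280D. The WT and S280D libraries did not overlap the others. The log2 fold change was 2.45 ± 0.35 (SE) in S280D against S280A and 1.99 ± 0.32 in both WT and S280D against YFP (edgeR adjusted p = 0.00169, 0.00486 and 0.00193). Without WT replicate 1 the WT against YFP value was 1.97. That call was lost only with lane as a covariate (edgeR adjusted p = 0.141).

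Pcm1 encodes the scaffold of the centriolar satellites, on chromosome 16 from 54040720 to 54137660. Its level was 18.9 and 21.6 CPM with YFP, 23.8 and 14.4 with S280A, 43.6 and 41.2 with WT, and 65.4 and 44.5 with S280D. The lowest WT or S280D library was far above the highest of the other groups. The log2 fold change was 1.52 ± 0.23 for S280D against S280A and 1.07 ± 0.23 for WT against YFP (edgeR adjusted p = 0.00186 and 0.0122). The WT against YFP call was lost without WT replicate 1 (1.02, adjusted p = 0.101) and without YFP replicate 1 (0.97, adjusted p = 0.0703). Pcm1 overlaps the gene Asah1 in the annotation used by the table, and reads of the overlap cannot be assigned by name alone.

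Cep350, which anchors microtubules at the centriole, followed Pcm1. It stood at 9.6 and 14.5 CPM with YFP, 11.8 and 8.29 with S280A, 24.5 and 21.0 with WT, and 37.0 and 23.1 with S280D, and the S280D and S280A libraries did not overlap. The S280D against S280A difference was 1.58 ± 0.27 (edgeR adjusted p = 0.00243). Ccdc66, a satellite protein, rose by 1.05 ± 0.23 in that comparison, but by 0.84 (adjusted p = 0.0723) without S280A replicate 2 and 0.85 (adjusted p = 0.0684) without S280D replicate 1. Cep290, the transition zone protein, was at 2.32 and 2.58 CPM in S280A and 13.2 and 4.6 in S280D, so its difference of 1.88 ± 0.46 rested on a high S280D replicate 1. Without that library it was 0.93 ± 0.41 (adjusted p = 0.151), and without S280A replicate 2 it was 1.95 ± 0.62 (adjusted p = 0.0697).

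Pcnt and Ninl did not pass the test in any comparison. Pcnt, the pericentrin scaffold of the matrix and, at 9447 bases, the longest of the 120 by exon length, was at 14.1 to 18.4 CPM in all 8 libraries. Its S280D against S280A difference was 0.12 ± 0.16 (edgeR adjusted p = 0.579). Ninl, ninein-like protein, ranged over 4.59 to 8.07 CPM at 0.47 ± 0.26 (adjusted p = 0.17). Cep250 and Cep68, which act in the same linker as centlein, were at 0.06 and 0.07. Cep170b fell by 0.31 (SE 0.11, adjusted p = 0.0473), from 208 and 228 CPM in S280A to 170 and 182 in S280D, a call lost in 9 of the 17 alternatives, with -0.25 (adjusted p = 0.312) without S280D replicate 1 and -0.26 (adjusted p = 0.213) without S280A replicate 2. Cep131, a satellite protein, was higher in S280A than in WT at 0.56 ± 0.19 (adjusted p = 0.0468), with 9.35 and 11.98 CPM in WT and 16.4 and 15.0 in S280A. Without WT replicate 1 it was 0.39 (adjusted p = 0.321), and leaving out any other WT, S280A or S280D library also lost that call.

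**Figure D4:**
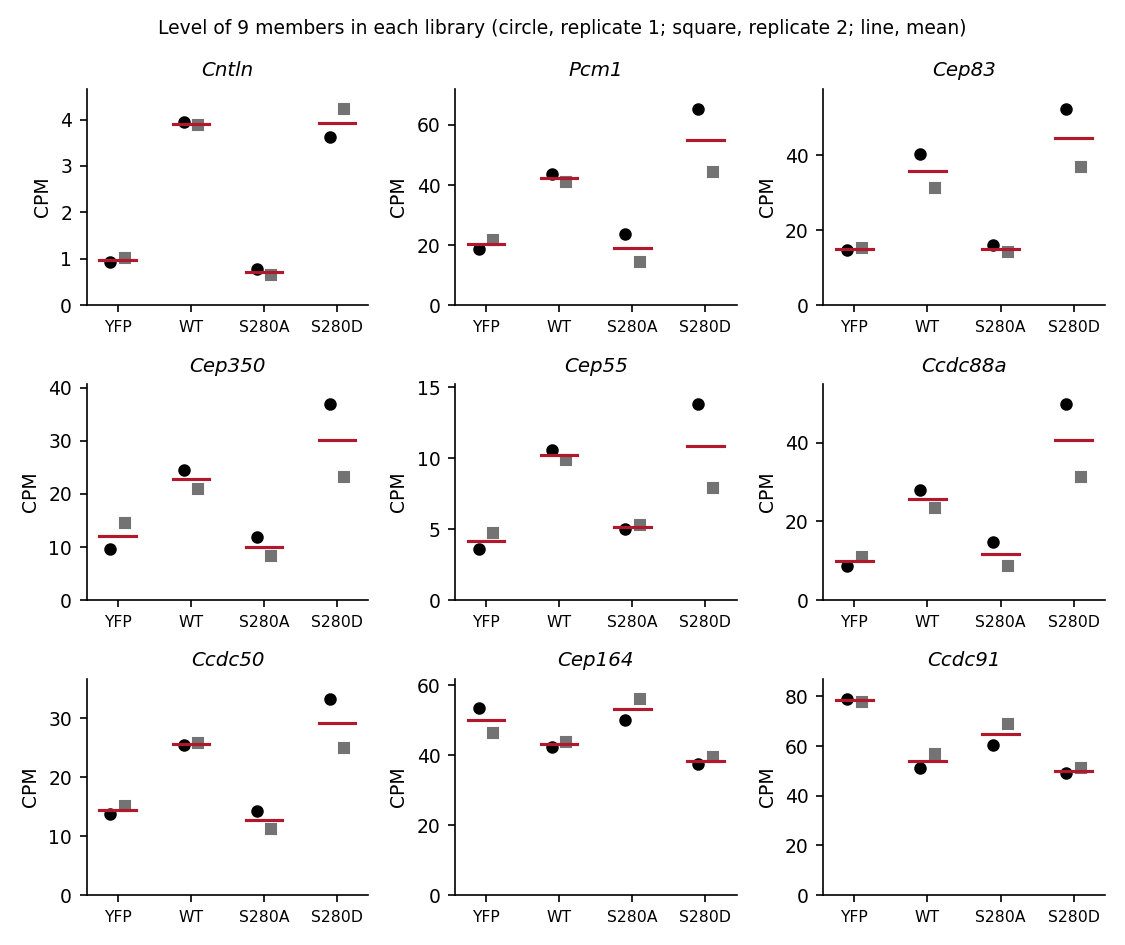
Level in CPM (vertical axes, from 0) of 9 members in each library by construct (horizontal axes); black circles are replicate 1, grey squares replicate 2 and red lines the mean of the 2. Cntln reaches 3.63 to 4.23 CPM in WT and S280D and at most 1.02 elsewhere, while Cep164 and Ccdc91 are lowest in S280D.

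Of 10 members that act in centriole duplication and length, 6 rose in S280D against S280A and 0 fell, with a median of 0.60 and 9 of 10 above 0. Cep135, a protein of the cartwheel on which centrioles form, was at 2.81 and 3.78 CPM with YFP, 3.51 and 2.5 with S280A, 7.15 and 6.91 with WT, and 8.17 and 7.01 with S280D. WT and S280D did not overlap the other groups. Its S280D against S280A difference was 1.33 ± 0.26 (edgeR adjusted p = 0.00366). Cep295, needed to turn new centrioles into centrosomes, was at 1.46 and Cep57 at 1.24, both called, but not without S280A replicate 2 or without S280D replicate 1 (adjusted p up to 0.0745 and 0.0965). Cep120, which elongates centrioles, rose from 25.7 and 20.4 CPM in S280A to 41.5 and 38.6 in S280D (0.80 ± 0.16, edgeR adjusted p = 0.00444), and by 0.63 (adjusted p = 0.0528) without S280A replicate 2. Cep85 was at 30.5 and 32.1 CPM in S280A and 26.6 and 25.3 in S280D, a difference of -0.27 ± 0.13 that did not pass (adjusted p = 0.123).

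Distal appendages hold the mother centriole to the membrane when a cilium forms, and here 3 of 10 members rose and 2 fell in S280D against S280A, with a median of 0.38, beside 21.3% and 18.0% of all genes. Cep83, a base component of the appendage, was at 14.8 and 15.2 CPM with YFP, 16.1 and 14.1 with S280A, 40.4 and 31.2 with WT, and 52.5 and 36.9 with S280D. No YFP or S280A library reached a WT or S280D library. The difference was 1.57 ± 0.20 for S280D against S280A (edgeR adjusted p = 0.00159). Only 21.5% of its reads were unique, and on unique reads alone the difference was 1.41 (adjusted p = 0.00335). Cep162, which binds axonemal microtubules at the ciliary base, rose from 1.54 and 2.01 CPM in S280A to 6.43 and 5.65 in S280D (1.77 ± 0.31, adjusted p = 0.00272).

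Cep164, the appendage protein that recruits the kinase of cilium formation, went the other way. It was at 53.6 and 46.4 CPM with YFP, 50.1 and 56.1 with S280A, 42.4 and 43.9 with WT, and 37.4 and 39.4 with S280D, and the S280D and S280A libraries did not overlap. The difference was -0.47 ± 0.13 (edgeR adjusted p = 0.0159). It was -0.40 (adjusted p = 0.113) without S280A replicate 2 and -0.41 (adjusted p = 0.143) without S280D replicate 1. Cep19 rose by 0.70 ± 0.16 (adjusted p = 0.00794, and 0.0526 without S280A replicate 2). Ccdc92 fell by 0.61 (SE 0.19), with -0.55 (adjusted p = 0.13) without S280A replicate 2, and, leaving out S280D replicate 2 or 1 in turn, -0.44 (0.155) and -0.81 (0.0515). The appendage protein Cep89 was at -0.28 and did not pass.

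Cytokinesis was represented by a pair of genes that moved apart. Cep55, which gathers the abscission machinery at the midbody, was at 3.57 and 4.7 CPM with YFP, 4.99 and 5.31 with S280A, 10.6 and 9.89 with WT, and 13.8 and 7.88 with S280D. The S280D libraries differed from each other more than the WT libraries did. The S280D against S280A difference was 1.09 ± 0.27 (edgeR adjusted p = 0.0109), and 0.63 ± 0.28 (adjusted p = 0.15) without S280D replicate 1. Without S280A replicate 2 it was 1.12 ± 0.36 (adjusted p = 0.068). Ccdc124, also found at the midbody, fell from 38.8 and 53.9 CPM in S280A to 28.3 and 30.8 in S280D (-0.65 ± 0.18, adjusted p = 0.0164), with -0.41 (adjusted p = 0.167) without S280A replicate 2 and -0.57 (adjusted p = 0.127) without S280D replicate 1.

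Among the Ccdc genes of actin and signalling, Ccdc88a had the largest difference. It encodes girdin, an actin-binding protein that also modulates G proteins. It stood at 8.78 and 10.9 CPM with YFP, 14.7 and 8.78 with S280A, 28.0 and 23.4 with WT, and 49.95 and 31.4 with S280D. Each S280D library was above each WT library, although S280D against WT did not pass (0.67 ± 0.25, edgeR adjusted p = 0.94). The S280D against S280A difference was 1.79 ± 0.27 (adjusted p = 0.00186). Ccdc50, a ubiquitin-binding signalling protein with an exon length of only 1172 bases, rose by 1.19 ± 0.19 (adjusted p = 0.00186), from 14.2 and 11.3 CPM to 33.4 and 25.0. Ccdc8, of the 3M complex, fell in WT against YFP, from 47.4 and 51.1 CPM to 33.0 and 32.8 (-0.58 ± 0.14, adjusted p = 0.0193). That call was lost when any of the 4 YFP and WT libraries was left out, with adjusted p of 0.0522 to 0.143.

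Of 5 endosomal sorting proteins 1 rose and 2 fell in S280D against S280A, with a median of -0.24, beside 21.3% and 18.0% of all genes. The share that rose was close to that of all genes, and the share that fell was above it. Ccdc132, now named Vps50, a tether of recycling endosomes, rose by 1.28 ± 0.21 (edgeR adjusted p = 0.00228). Of its reads 33.6% were unique, and on those the difference was 1.57 (adjusted p = 5.07e-04). Ccdc91, an accessory protein of Golgi to endosome transport, was at 79.0 and 77.7 CPM with YFP, 60.5 and 68.9 with S280A, 51.0 and 56.6 with WT, and 49.1 and 51.0 with S280D. It fell by 0.65 (SE 0.12, adjusted p = 0.00392) in S280D against YFP, and the YFP libraries overlapped no other group. Without S280D replicate 1 it was at -0.60 (adjusted p = 0.0525). Ccdc22, of the retriever-associated CCC complex, fell by 0.69 (SE 0.17) in S280D against S280A, with -0.54 (adjusted p = 0.0963) without S280A replicate 2 and -0.63 (adjusted p = 0.091) without S280D replicate 1, while Ccdc93 of the same complex was at -0.24 and did not pass. Ccdc53, now Washc3, rose in WT against YFP by 0.60 ± 0.14 (adjusted p = 0.0184), a call lost without either WT library and without YFP replicate 2, where it was 0.40 (adjusted p = 0.0727).

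In the endoplasmic reticulum and secreted group 2 of 6 rose and 1 fell. Ccdc47, which helps insert membrane proteins, rose from 154 and 132 CPM in S280A to 287 and 214 in S280D (0.81 ± 0.16, edgeR adjusted p = 0.00403), and was 0.72 ± 0.16 in WT against YFP. The former was 0.69 (adjusted p = 0.0525) without S280A replicate 2, and the latter 0.64 (adjusted p = 0.12) without WT replicate 1 and 0.59 (adjusted p = 0.0851) without YFP replicate 1. Ccdc80 was at 5239 and 5502 CPM in YFP and 4225 and 4251 in S280D, a difference of -0.34 ± 0.12 at the threshold (adjusted p = 0.0459), lost in 9 of the 17 alternatives and whenever a YFP, WT or S280D library was left out. Of 5 mitochondrial members 3 rose and 0 fell, namely Ccdc90b (0.99 ± 0.22, adjusted p = 0.00635), Ccdc127 (0.73 ± 0.22, adjusted p = 0.0254) and Ccdc58, now Mix23 (0.48 ± 0.15, adjusted p = 0.0257). Without S280D replicate 1 Ccdc90b was at 0.94 (adjusted p = 0.0524) and Ccdc58 at 0.41 (0.195), and without S280A replicate 2 they were at 0.70 (0.0684) and 0.47 (0.115). The Ccdc127 call was lost without either of these libraries (adjusted p up to 0.184), and the Ccdc58 call also without S280A replicate 1 and without WT replicate 2.

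Of 6 members of the nucleus and RNA processing 1 rose and 3 fell, with a median of -0.39, the lowest of the role lists. Ccdc12, a spliceosome protein of 813 exon bases, fell from 22.0 and 21.7 CPM in YFP to 14.5 and 14.2 CPM in WT and to 13.3 and 13.1 CPM in S280D (-0.60 ± 0.15 and -0.73 ± 0.14, edgeR adjusted p = 0.0187 and 0.00522). S280A stood between, at 18.5 and 18.1 CPM. The WT call was lost without either WT library (adjusted p = 0.139 and 0.0998) and without YFP replicate 1 (0.0716), and the S280D call without S280D replicate 1 (0.0593). Ccdc86 fell by 0.50 and Ccdc130, now Yju2b, by 0.53 in S280D against S280A, and both calls were lost with the lane covariate (adjusted p = 0.0507 and 0.0652) and without any 1 of the 4 libraries compared. Without S280D replicate 1 they were at -0.49 and -0.49 (adjusted p = 0.147 and 0.196). Ccdc59 rose by 1.25, a call that held under all 17 alternatives.

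Of 5 motile cilium members tested, 1 was called in S280D against S280A. It was Ccdc39, the molecular ruler of motile axonemes, at 0.211 and 0.242 CPM in S280A and 1.57 and 0.683 in S280D, a difference of 2.34 ± 0.73 on few reads (edgeR adjusted p = 0.0263). Without S280D replicate 1 it was 1.58 (adjusted p = 0.245), and without S280A replicate 1 or 2 it was 2.24 (0.1) and 2.42 (0.128). Ccdc65, of the dynein regulatory complex, was at 4.78 to 6.62 CPM in every library and did not pass (0.32 ± 0.22).

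Outside the role lists 16 of 52 members rose and 2 fell. Ccdc18, named after its values were seen, had the largest estimate, 3.24, from 7 reads and 1 read in S280A and 160 and 38 in S280D. It ran from 2.51 to 5.05 over the alternatives and was lost without S280A replicate 2 and without S280D replicate 1 (adjusted p up to 0.058). Ccdc112 rose by 0.97 ± 0.19 and Ccdc186, which acts in the sorting of dense-core vesicle cargo, by 1.14 ± 0.21. Cep126 was at 1.35 and 1.48 CPM with YFP, 3.23 and 2.5 with S280A, 4.8 and 5.25 with WT, and 5.88 and 6.1 with S280D. S280A thus lay between YFP and the other constructs, and Cep126 had the largest Cep difference of WT against YFP, 1.82 ± 0.27 (edgeR adjusted p = 0.00389). Ccdc97 fell by 0.73 (SE 0.14) in S280D against S280A (adjusted p = 0.00331), from 60.95 and 75.0 CPM to 40.4 and 41.7.

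**Figure D5:**
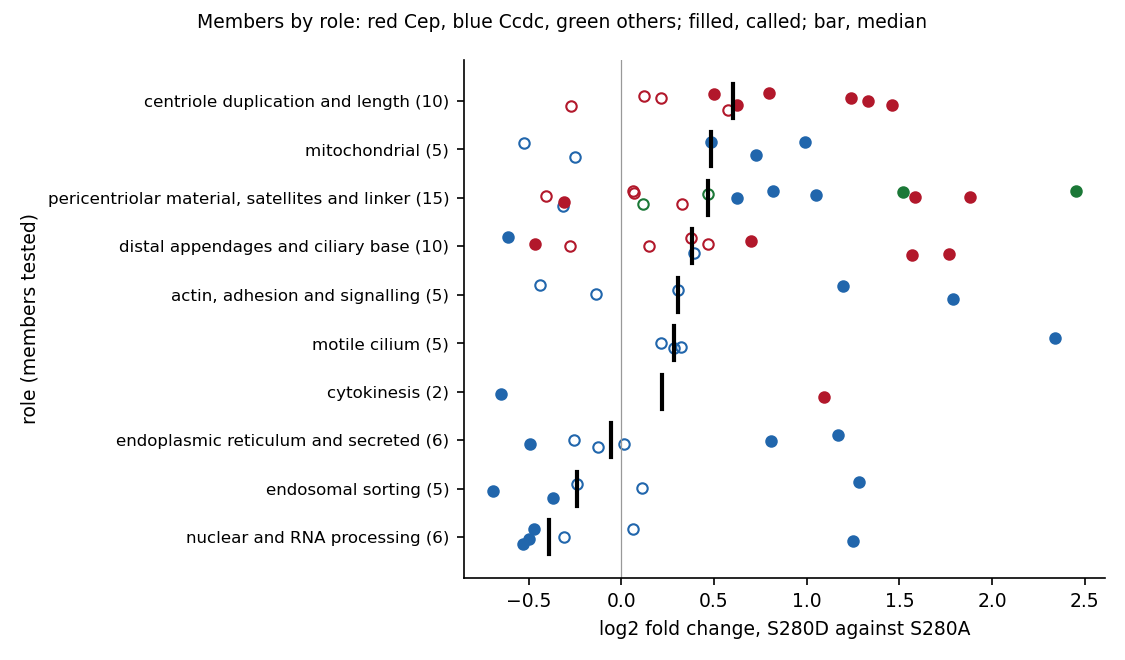
Log2 fold change of S280D against S280A (horizontal axis) for the members in each role list (vertical axis, members tested in brackets). Points are genes, red Cep, blue Ccdc and green others, filled where called, spread vertically only for legibility; black bars are list medians, from -0.39 in the nucleus and RNA processing to 0.60 in centriole duplication and length.

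Genes of other lists, which hold no Cep or Ccdc gene, were set beside the members for S280D against S280A. There 21.3% of all genes were higher and 18.0% lower. Some lists are of the centrosome and cilium, while those of golgins, other coiled-coil proteins and mitosis are not confined to these structures. Of 22 other centriole assembly genes 8 rose and 2 fell (median 0.42), among them Cenpj, which sets centriole length, at 1.55 ± 0.26. Of 28 other pericentriolar and spindle pole genes 9 rose (32.1%) and 5 fell (17.9%), with a median of -0.11. Only the lower share was close to that of all genes. The augmin subunits Haus6 and Haus3 were at 2.36 ± 0.28 and 1.48 ± 0.24. Of 40 genes of intraflagellar transport and the transition zone 12 rose and 2 fell (median 0.31), including Dync2h1, the motor of return transport, at 1.51 ± 0.21. Of 15 golgins and Golgi tethers 11 rose and 0 fell (median 0.82), with Trip11 at 1.83 ± 0.22. Of 26 other coiled-coil proteins 20 rose and 1 fell (median 1.44), with the kinesin Kif5b at 1.74 ± 0.22. Their median exon length was 5994 bases against 3363 for Cep genes. Of 23 mitosis genes 9 rose and 1 fell (median 0.26), with the proliferation marker Mki67 at 1.48 ± 0.28, and 16 rose and 0 fell in WT against YFP (median 0.72), where 12.2% and 7.45% of all genes were called. The part of proliferation in the members' differences was not tested.

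Intron reads gave a second readout, for 109 of the 120 genes. In S280D against S280A 3 members were higher and 1 lower, beside 4.54% of the 12988 genes tested for introns in either direction. Ccdc39 (1.67 ± 0.41), Cep295 (1.17 ± 0.28) and Ccdc80 (1.48 ± 0.29) were higher and Cep135 lower (-1.96 ± 0.41), with edgeR adjusted p of 0.021 to 0.0354. Exon and intron reads of Cep135 thus moved in opposite directions: its intron level was 53.7 and 119.7 CPM in S280A and 19.9 and 24.4 in S280D, out of all intron reads. In S280D against YFP 4 were higher and 2 lower, beside 5.35% of all genes. In WT against YFP 0 were called, beside 2.02% of all genes. At an unadjusted p under 0.05 stood 17 of 109 members and 2261 of all 12988 genes. The intron differences of Cntln, Pcm1 and Cep83 in S280D against S280A were 0.53 ± 0.41, 0.49 ± 0.27 and 0.52 ± 0.35, and none passed (adjusted p = 0.481, 0.307 and 0.417). The median over members was 0.23 for introns and 0.38 for exons. By family the intron median was 0.17 for Cep and 0.23 for Ccdc genes, the reverse of the exon order. It was 0.03 and 0.15 in WT against YFP, and -0.04 and -0.19 in S280A against WT. In S280D against WT it was 0.01 and 0.08, and in S280A against YFP -0.08 and -0.09. Only in S280D against YFP, at 0.21 and 0.12, was the family order that of exons. These medians carry no test.

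Some values are uncertain because of how reads were counted. Of the 120 genes 10 had under 90% unique exon reads, among them Ccdc142, Ccdc147, Cep83, Ccdc107 and Ccdc132, and 13 overlapped another gene with at least 100 exon reads, among them Cep290, Cep295, Cep63 and Cep95. For Ccdc147 no exon read was unique.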

How the data were processed

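RNA of 8 libraries, 2 for each of 4 constructs, was selected for poly(A) and read as strand-specific pairs, per the labels' protocols. The authors deposited raw counts per gene without normalization, of all exon reads, of exon reads that are unique, and of intron reads, per the file headers. The build is Rnor_6.0, per the submitters' processing notes. No source used here gives the aligner, annotation or strand setting.

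All exon reads went into edgeR 4.0.16 (R 4.3.3), with filterByExpr, TMM scaling and the quasi-likelihood test over all 8 libraries and 6 two-sided contrasts, with Benjamini-Hochberg adjustment over 12407 genes at 0.05. All 120 members passed the filter. Fold changes are log2 with SE, and CPM are TMM-scaled. Intron reads were tested in the same way. The length curve is a lowess fit (fraction 0.5) on log2 exon length. One WT library has replicate number 2 in its title and 3 in its description; the title was followed. No molecular identifiers were used, so PCR copies are counted as reads.

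Alternatives were DESeq2 1.42.0, RLE factors, unique reads in place of total reads, an offset for exon length, lane as covariate, a replicate block, a fit of only the 4 libraries compared, other filters (none, or at least 1 CPM in 2 libraries), and each library left out in turn. Scripts were tested on simulated data. The members and lists were chosen with earlier results of these data known. Genes named are Cntln, Pcm1, Pcnt and Ninl, up to 4 called members per family, comparison and direction with the smallest adjusted p, a mean of at least 1 CPM and no overlap between groups, the 3 highest and lowest per kb of each family, the 2 with most reads of each role list and up to 2 called genes of other lists. Other members are named as examples after their values were seen.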

Additional observations from a re-analysis of the deposited data

How the results depend on the processing

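Each count of members called and each Cep minus Ccdc median difference was recomputed under 17 alternatives. For WT against YFP, S280A against YFP, S280D against YFP, S280A against WT and S280D against S280A the main counts were 28, 0, 48, 36 and 55. With lane as a covariate the counts were 0 for WT against YFP, 25 for S280D against YFP and 14 for S280A against WT, and the Cep minus Ccdc differences were 0.212 for S280D against YFP and -0.207 for S280A against WT. Without a filter on low counts 1 member was called in S280A against YFP and 2 in S280D against WT, beside 1.37% and 0.637% of all genes. DESeq2 called 1 member in S280A against YFP, beside 0.806% of all genes. With the exon length offset the Cep minus Ccdc difference in S280A against WT was -0.177. Leaving out 1 library gave 2 to 34 calls in WT against YFP, 0 to 1 in S280A against YFP, 11 to 50 in S280D against YFP, 0 to 41 in S280A against WT and 17 to 57 in S280D against S280A. The share of all genes called ran over 1.28% to 22.75%, 0.0158% to 1.02%, 7.24% to 32.5%, 0.0468% to 30.2% and 9.78% to 41.2% in the same fits. The Cep minus Ccdc difference then ran over 0.0943 to 0.301 (WT against YFP), -0.12 to 0.114 (S280A against YFP), 0.196 to 0.404 (S280D against YFP), -0.311 to -0.209 (S280A against WT), 0.0458 to 0.2 (S280D against WT) and 0.327 to 0.507 (S280D against S280A). A library left out leaves its group with 1 sample, which is assumed to vary like the other groups. The cause of these changes was not tested, beyond the fewer libraries.

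The labels do not say that a replicate number marks a shared culture, and differences between replicates correlated across genes at -0.173 to 0.205 between groups. With a replicate block 26, 0, 45, 34, 0 and 54 members were called in WT against YFP, S280A against YFP, S280D against YFP, S280A against WT, S280D against WT and S280D against S280A. Of all genes 17.35%, 0.0322%, 27.4%, 23.0%, 0.0242% and 37.2% were called in these fits. Of the values of named members under all alternatives, 3993 kept their direction and side of the threshold, or were below it with either sign, 71 passed it newly and 295 no longer passed, and no called value changed sign. Low genes are limited by depth: in the smallest library 1 read of Ccdc18 is 0.0805 CPM.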
